A study of Mus musculus with 6 samples.

Results

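C1q-positive macrophages are the phagocytes that carry transcripts of the 3 chains of complement C1q. They were picked out of single-cell RNA sequencing of regenerating mouse tibialis anterior muscle (TAM) by a gate on unique molecular identifiers (UMIs). A cell entered the gate with at least 2 of *C1qa*, *C1qb* and *C1qc* above 0, at least 1 of *Csf1r*, *Cd68* and *Adgre1* above 0, *Ptprc* or *Lyz2* above 0, and no UMI of *Pdgfra* (fibro-adipogenic progenitors, FAPs), *Cd79a* (B cells) or *Cd3e* (T cells). In all, 764 of 11207 cells passed. The cells were thus chosen by the measured UMIs of these 11 genes, so their values below are a description of the gate and not a result.

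The animals were male mice aged 3 to 5 months of B6;129 background with the Gt(ROSA)26Sor allele named tm1(Fucci2aR)Jkn, a cell-cycle reporter that all groups share; the study's methods describe Cre-negative animals, in which the reporter is not switched on by Cre. Hypothyroid mice received an iodine-deficient diet with 0.15% propylthiouracil, which blocks thyroid hormone synthesis, and control mice a matched diet, in both cases from 3 weeks before injury and until collection. The right TAM was injected with 50 µg/ml cardiotoxin, a venom peptide that lyses myofibers, and collected 5 or 14 days post injury (dpi), or was left uninjured (0 dpi). Each of the 6 groups is 1 library made from the pooled muscles of 3 mice, so no difference below has a replicate check and none was tested; intervals are 95% and cover counting error only. The labels give each day as its own batch, so a day and its batch cannot be told apart. Each deposited table but that of hypothyroid mice at 14 dpi goes on after its first alphabetical run of barcodes with a second set of columns, whose source the labels do not give; the comparisons use only first runs, and ratios with the later columns added are given beside those that they move most.

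C1q is the recognition unit of the classical complement pathway. Macrophages and microglia make it themselves, and it binds antibody complexes and dying cells and helps to clear them. In injured muscle, monocytes enter from the blood, become macrophages, remove dead fibers and then change towards cells that support myogenic cells and matrix repair, a later stage at which lipid handling, lysosomal digestion and antigen presentation genes are usual markers.

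The 3 chain genes lie side by side on the minus strand of chromosome 4. In GRCm39 with GENCODE M39 they are protein-coding genes at chr4:136606009-136613511 (*C1qb*), chr4:136616466-136620376 (*C1qc*) and chr4:136623223-136626161 (*C1qa*). The promoters of *C1qb* and *C1qc* are shown because these genes define the cells: the 250 bases before the RefSeq start (GRCm38.p6, minus strand, chr4:136886201-136886450 for *C1qb* and chr4:136892915-136893164 for *C1qc*), with capitals marking an ETS-type motif, AGGAAGT, here on the opposite strand. ETS factors such as PU.1 are the lineage factors of myeloid cells.
C1qb: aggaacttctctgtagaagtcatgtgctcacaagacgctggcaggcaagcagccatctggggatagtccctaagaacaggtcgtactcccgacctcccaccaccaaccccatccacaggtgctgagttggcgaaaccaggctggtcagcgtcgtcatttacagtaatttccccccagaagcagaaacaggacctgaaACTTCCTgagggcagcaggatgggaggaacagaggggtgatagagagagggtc
C1qc: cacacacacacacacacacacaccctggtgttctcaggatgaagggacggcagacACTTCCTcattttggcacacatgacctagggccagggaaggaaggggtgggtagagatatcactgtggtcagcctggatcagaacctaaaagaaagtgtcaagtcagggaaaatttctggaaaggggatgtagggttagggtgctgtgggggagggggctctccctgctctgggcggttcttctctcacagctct
The motif, searched on both strands, was in the windows of *C1qb* and *C1qc*, in 5 of 13 other macrophage identity genes with a window, and in 9.52% of 27025 RefSeq promoter windows of 300 bases. A match is a description of the letters and not a bound site.

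No C1q-positive macrophage was found in uninjured TAM: 0 of 1152 control cells (exact binomial interval up to 0.320%) and 0 of 528 hypothyroid cells (up to 0.696%). These libraries held few myeloid cells to look among. Only 1 control and 8 hypothyroid cells met the other parts of the gate, and 63 and 33 cells had *Ptprc* UMIs. At 5 dpi, they were 88 of 2428 control cells (3.62%, exact binomial interval 2.92 to 4.45) and 488 of 2155 hypothyroid cells (22.6%, 20.9 to 24.5), a ratio of 6.25 (4.97 to 7.93). At 14 dpi, they were 73 of 3294 control cells (2.22%, 1.74 to 2.78) and 115 of 1650 hypothyroid cells (6.97%, 5.79 to 8.31), a ratio of 3.14 (2.33 to 4.28). The share was thus higher in the hypothyroid library on both injured days, and the C1q-positive share was lower at 14 than at 5 dpi in either diet. With the later columns added, the ratios were 4.08 at 5 dpi and 1.99 at 14 dpi.

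**Figure D1:**
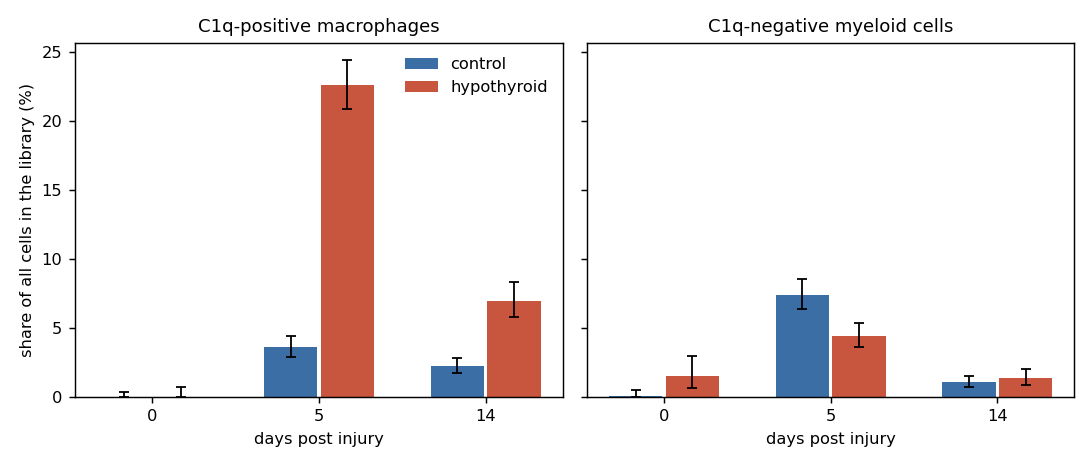
Share of all cells of each library (%, vertical axis) that were C1q-positive macrophages or C1q-negative myeloid cells, by diet and day; bars of error are exact 95% binomial intervals. C1q-positive macrophages were not found at 0 dpi and were highest in the hypothyroid 5 dpi library (22.6%), where the C1q-negative cells were 4.41%.

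Cells that met the other parts of the gate but had fewer than 2 C1q chains, called C1q-negative myeloid cells here, did not follow the same order. They made up 7.41% of control and 4.41% of hypothyroid cells at 5 dpi, and 1.06% and 1.33% at 14 dpi. C1q-positive cells were therefore 32.8% of 268 gated myeloid cells in control mice at 5 dpi against 83.7% of 583 in hypothyroid mice. At 14 dpi, they were 67.6% of 108 against 83.9% of 137. Among the C1q-negative cells, 5.0% of control and 30.5% of hypothyroid ones had some C1q UMI at 5 dpi, and 17.1% and 50.0% at 14 dpi. The part of C1q UMIs from other cells in this split was not tested. A share also depends on the other cells of the library. *Ptprc*, the pan-leukocyte gene, was above 0 in 60.1% of the remaining control cells at 5 dpi and in 27.3% of the hypothyroid ones. Taken per *Ptprc*-positive cell, the ratio of hypothyroid to control was 9.38 at 5 dpi and 1.63 at 14 dpi.

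The marker genes of macrophages were present in most of the cells. *Csf1r*, the receptor of the macrophage growth factor CSF1, was above 0 in 68.2% of the C1q-positive cells of either diet at 5 dpi, and in 84.9% (control) and 81.7% (hypothyroid) at 14 dpi. *Cd68*, a lysosomal membrane protein of phagocytes, was above 0 in 85.2%, 94.9%, 84.9% and 92.2% of the control 5 dpi, hypothyroid 5 dpi, control 14 dpi and hypothyroid 14 dpi cells. *Pf4*, a chemokine gene that the gate did not use, stood at 1328, 1764, 2676 and 1897 CPM in that order, against 3.05, 36.2, 9.77 and 26.8 in the cells outside the myeloid gate.

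Levels are given in CPM throughout: the UMIs of a gene summed over the C1q-positive cells of a library, divided by all their UMIs and scaled to 1000000, so that they describe the pool and not the single cell.

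The number of chains per cell is part of the gate, so it is given as a description. All 3 chains were present in 77, 453, 58 and 105 cells, and exactly 2 in 11, 35, 15 and 10, in the same order of libraries. Among hypothyroid cells at 5 dpi, *Apoe* was 22852 CPM in cells with 3 chains and 8461 in cells with 2. It was 1895 in the 29 cells with 1, just outside the gate. *C1qb*, itself a gate gene, was 4045, 749 and 134. These cells also differed in depth, with medians of 7366, 3185 and 4417 UMIs. C1q UMIs were also found in cells that should lack the genes. Of *Pdgfra*-positive cells, 4.43%, 20.2%, 3.54% and 11.1% had some C1q UMI and 1.27%, 4.36%, 0.726% and 2.0% had 2 chains, at median depths of 14991, 15816, 6072 and 10162 UMIs against 6009.5, 7094, 4001 and 8046 in the C1q-positive macrophages.

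Transcripts of other cell classes were present in the macrophages and moved with both diet and day. The summed level of 12 FAP markers was 447 CPM in control and 2446 in hypothyroid cells at 5 dpi, and 5482 and 2083 at 14 dpi. That of 10 muscle markers was 410 and 148 at 5 dpi, and 6751 and 1551 at 14 dpi, and that of 10 endothelial and mural markers was 78.8, 107, 1016 and 1228 in the order of the libraries above. Cells with 3 or more marker genes of other classes were 51 of 88 control and 264 of 488 hypothyroid cells at 5 dpi. At 14 dpi, they were all 73 control and 108 of 115 hypothyroid cells. Such markers took over 1% of the UMIs in 24 of the control 14 dpi cells. This was so in 0, 16 and 14 cells of the control 5 dpi, hypothyroid 5 dpi and hypothyroid 14 dpi libraries. The part of these transcripts in the differences below was not tested, beyond leaving out the cells over 1%.

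**Figure D2:**
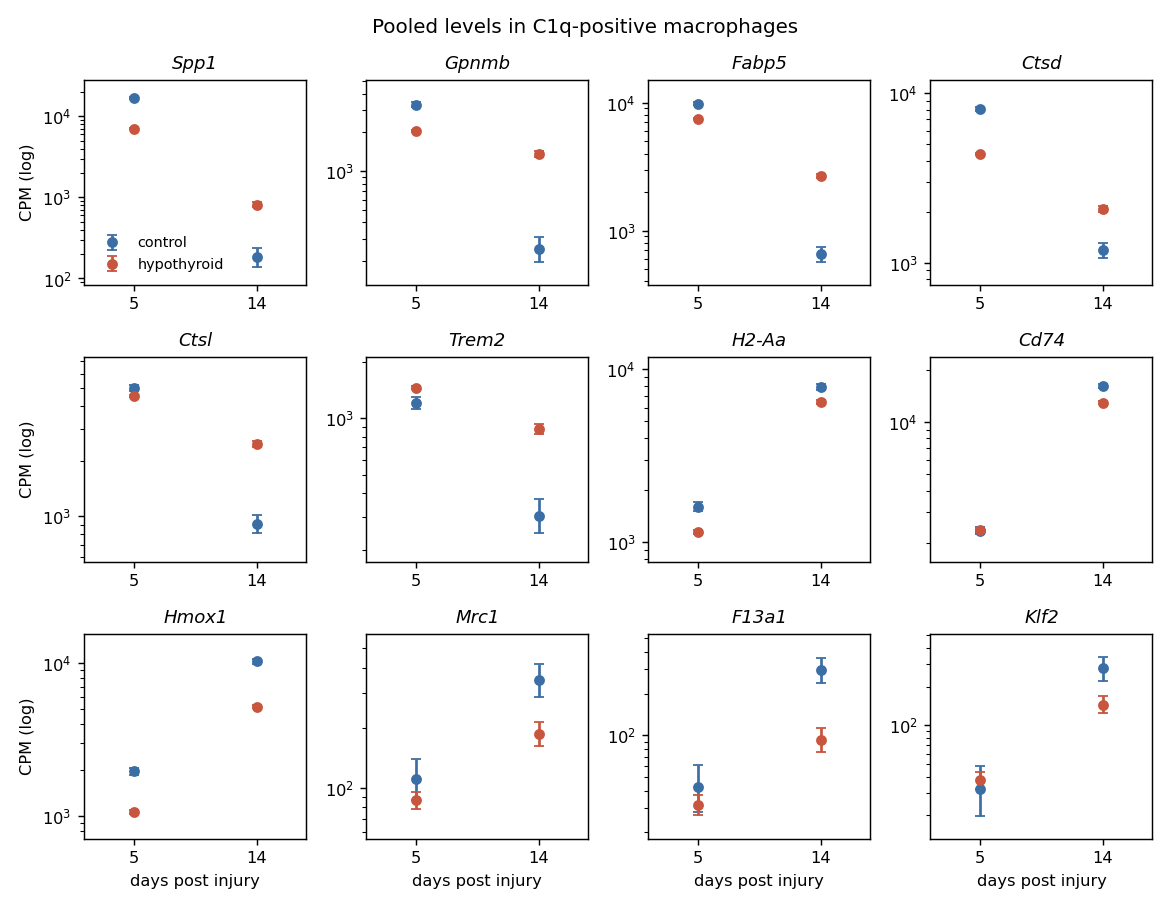
Level of 12 genes in the C1q-positive macrophages of the 4 libraries from injured muscle (CPM, log axis), with exact 95% Poisson intervals. *H2-Aa* and *Cd74* stand higher and *Spp1* lower at 14 than at 5 dpi in both diets.

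Between 5 and 14 dpi, antigen presentation genes were higher at the later day in both diets. *H2-Aa*, which encodes a chain of the MHC class II molecule that shows peptides to CD4 T cells, was 1604 CPM in control and 1138 in hypothyroid macrophages at 5 dpi, and 7884 and 6466 at 14 dpi. The day ratio was 4.92 (4.57 to 5.29) in control and 5.68 (5.48 to 5.88) in hypothyroid cells. *Cd74*, the invariant chain that escorts class II molecules, went from 2345 to 16032 (6.84-fold, 6.46 to 7.24) and from 2350 to 12868 (5.48-fold, 5.34 to 5.61). *H2-Ab1* and *H2-Eb1* had ratios of 6.73 and 5.09 in control and of 5.66 and 5.54 in hypothyroid macrophages. All 7 class II genes that reached the count minimum were at least 2-fold higher at 14 dpi in control mice, where 12.1% of 2344 genes were, and 6 of 7 in hypothyroid mice, where 8.89% of 5434 genes were. Either way, 20.6% of genes in control and 11.6% in hypothyroid macrophages differed at least 2-fold by day. The exception was *Cd86*, a costimulatory receptor, at 1.21 (0.961 to 1.51). Their median log2 ratio was 2.30 and 2.45, against −0.02 and 0.17 over all genes counted.

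The same 4 genes were not higher by day outside the myeloid gate, where *H2-Aa* had a day ratio of 0.0464 in control and 0.281 in hypothyroid libraries. The make-up of those cells differed by day: *Ptprc* was above 0 in 60.1% of them at 5 dpi and 4.74% at 14 dpi in control mice. In hypothyroid mice, these were 27.3% and 11.7%. The C1q-negative myeloid cells are not among them, and their day ratios are not given here. With the later columns added, the control ratios were 2.31 for *H2-Aa* and 2.57 for *Cd74*. Class II promoters carry a conserved Y box, CTGATTGG, bound by the factor NF-Y. The windows below are the 250 bases before the RefSeq start of *H2-Aa* (GRCm38.p6, minus strand, chr17:34287824-34288073) and *H2-Eb1* (plus strand, chr17:34305617-34305866), shown because these class II genes were higher at 14 dpi in both diets, with the Y box in capitals.
H2-Aa: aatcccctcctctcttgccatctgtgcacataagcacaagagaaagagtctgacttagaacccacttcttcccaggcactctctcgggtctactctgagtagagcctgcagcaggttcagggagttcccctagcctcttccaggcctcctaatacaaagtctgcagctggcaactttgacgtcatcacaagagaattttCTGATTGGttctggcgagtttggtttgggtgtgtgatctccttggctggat
H2-Eb1: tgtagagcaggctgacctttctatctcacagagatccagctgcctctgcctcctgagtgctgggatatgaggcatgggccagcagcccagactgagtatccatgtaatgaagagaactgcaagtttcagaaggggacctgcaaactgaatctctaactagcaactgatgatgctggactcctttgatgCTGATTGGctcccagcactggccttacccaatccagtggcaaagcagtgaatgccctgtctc
The 8 letters were in 3 of 7 class II genes with a window (*H2-Aa*, *H2-Eb1* and *H2-Oa*) and in 4.30% of all windows, on either strand.

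Lysosomal genes went the other way in control macrophages. *Ctsd*, the aspartic protease cathepsin D, was 8115 CPM at 5 dpi and 1187 at 14 dpi in control mice (ratio 0.146, 0.131 to 0.162), and 4355 and 2074 in hypothyroid mice (0.476, 0.456 to 0.497). *Ctsl*, a cysteine protease, was 5027 and 909 in control (0.181, 0.160 to 0.204) and 4547 and 2471 in hypothyroid macrophages (0.543, 0.522 to 0.565). The control ratios were 0.339 for *Ctsd* and 0.544 for *Ctsl* when the later columns were added. Of the lysosome list, 9 of 19 genes were at most 0.5 times as high at 14 dpi in control mice (8.58% of all genes were), among them *Ctsb*, *Psap*, *Grn* and *Lamp1*. In hypothyroid mice, only *Ctsd* of 20 was (2.71% of all genes). The median log2 ratio of the list was −0.93 and −0.18, and the difference between the diets in this was not tested. Lysosomal genes are known targets of the factor TFEB, whose binding motif contains CACGTG. The 250 bases before the RefSeq start of *Ctsd* (GRCm38.p6, minus strand, chr7:142387828-142388077) and *Ctsl* (minus strand, chr13:64370521-64370770) are shown with these letters in capitals.
Ctsd: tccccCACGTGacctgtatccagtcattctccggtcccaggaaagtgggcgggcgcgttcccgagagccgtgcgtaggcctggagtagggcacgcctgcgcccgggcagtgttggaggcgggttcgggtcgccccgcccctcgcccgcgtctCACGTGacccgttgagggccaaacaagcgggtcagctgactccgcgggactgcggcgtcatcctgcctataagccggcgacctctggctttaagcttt
Ctsl: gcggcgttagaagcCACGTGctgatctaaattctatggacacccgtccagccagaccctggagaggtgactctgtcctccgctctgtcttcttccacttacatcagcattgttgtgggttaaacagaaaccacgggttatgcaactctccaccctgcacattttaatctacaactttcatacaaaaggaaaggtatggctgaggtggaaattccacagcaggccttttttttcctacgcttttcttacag
CACGTG was in 4 of 16 lysosomal genes with a window and in 7.09% of all windows.

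Genes of lipid handling and repair were lower at 14 dpi in control mice. *Spp1*, which encodes the secreted matrix protein osteopontin, was 16766 CPM at 5 dpi and 183 at 14 dpi in control macrophages (0.0109, 0.00828 to 0.0141), and 7047 and 817 in hypothyroid ones (0.116, 0.109 to 0.124). *Gpnmb*, a membrane glycoprotein of lipid-laden macrophages, was 3276 and 249 in control (0.0761, 0.0600 to 0.0953) but 2062 and 1362 in hypothyroid mice (0.660, 0.626 to 0.697). *Fabp5*, a fatty acid carrier, was 9814 and 653 in control (0.0666, 0.0577 to 0.0765), and 7474 and 2657 in hypothyroid macrophages (0.355, 0.342 to 0.369). In control mice, 8 of 14 genes of this list were at most 0.5 times as high at 14 dpi and 0 were at least 2-fold higher. Over all genes, these were 8.58% and 12.1%. In hypothyroid mice, 4 of 16 were lower and 2 higher (2.71% and 8.89% of all genes). *Trem2*, a lipid-sensing receptor, was 1206 and 303 in control and 1460 and 874 in hypothyroid macrophages, ratios of 0.251 and 0.599, and with the later columns added the control ratios were 0.892 for *Trem2*, 0.428 for *Gpnmb*, 0.256 for *Fabp5* and 0.0525 for *Spp1*.

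Of the iron and heme list, 4 of 10 genes in control and 4 of 11 in hypothyroid macrophages were at least 2-fold higher at 14 dpi (12.1% and 8.89% of all genes), and 0 and 1 (*Hpgds*) at most 0.5 times as high. *Hmox1*, the heme-degrading enzyme, went from 1964 to 10298 CPM in control (5.24-fold, 4.91 to 5.59) and from 1071 to 5208 in hypothyroid macrophages (4.86-fold, 4.68 to 5.05). *Slc48a1*, which moves heme out of the lysosome, the iron exporter of phagosomes *Slc11a1* and the transferrin gene *Trf* were 2.28-, 2.39- and 2.22-fold higher in control and 2.49-, 2.71- and 2.19-fold higher in hypothyroid cells. In the control cells with later columns added, *Hmox1* was at 1.34. Outside the myeloid gate, *Hmox1* was 2.65-fold (control) and 3.92-fold (hypothyroid) higher at 14 dpi as well, and the globin gene *Hbb-bs*, which marks red blood cells, was 1.07 and 321 CPM in hypothyroid macrophages at 5 and 14 dpi, with 96.2% of the later UMIs in 1 cell. The summed erythroid, platelet and glial markers stood at 42.4, 13.1, 268 and 683 in the order of the libraries.

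Of 5 counted genes of the resident type, 2 were at least 2-fold higher at 14 dpi in control mice (*F13a1* and *Igfbp4*). In hypothyroid mice, 2 were higher (*F13a1* and *Ccl24*) and 1 lower (*Folr2*). Over all genes, 12.1% in control and 8.89% in hypothyroid macrophages were higher, and 8.58% and 2.71% lower. *Mrc1*, the mannose receptor, which is in the macrophage identity list, was 111 CPM at 5 dpi and 347 at 14 dpi in control (3.14-fold, 2.31 to 4.28) and 86.6 and 186 in hypothyroid macrophages (2.15-fold, 1.81 to 2.54). *F13a1*, a coagulation factor subunit, was 42.4 and 297 (7.0-fold, 4.55 to 11.1), and 31.5 and 93.0 (2.95-fold, 2.28 to 3.81). *Folr2*, a folate receptor, was 242 and 303 in control (1.25, 0.960 to 1.62), and 325 and 107 in hypothyroid cells (0.329, 0.272 to 0.395). With the later columns added the control ratios were 1.08 for *Mrc1*, 1.07 for *F13a1* and 0.624 for *Folr2*, which turned its direction. *Plac8*, a gene of fresh blood monocytes, was 159 and 3.16 in control and 37.1 and 0.861 in hypothyroid macrophages, the 14 dpi values resting on 1 cell in each. *Klf9*, a thyroid hormone target that stress also induces, was 48.5 and 186 in control (3.84-fold) and 33.7 and 103 in hypothyroid cells (3.07-fold), with a control ratio of 1.28 with the later columns added, and it was 2.23- and 3.22-fold higher outside the myeloid gate. Of 16 genes that tissue dissociation induces, *Fos* and *Egr1* among them, 9 were at least 2-fold higher at 14 dpi in control macrophages (12.1% of all genes). In hypothyroid macrophages, 5 were (8.89% of all genes).

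At 5 dpi, hypothyroid macrophages held more transcripts of chemokines and of interferon-stimulated genes than control macrophages. Of 11 chemokine genes, 7 were at least 2-fold higher and 1 at most 0.5 times as high, where 3.92% and 5.74% of 3797 genes were (9.67% either way). The higher ones were *Ccl2*, *Ccl3*, *Ccl4*, *Ccl5*, *Ccl8*, *Cxcl10* and *Cxcl14*, and the lower one *Ccl12*. This count was not repeated with the later columns or without cells over 1% of other-class UMIs. The median log2 ratio was 1.11 against −0.21 over all genes. *Ccl4*, a chemokine that draws monocytes and T cells, was 2372 CPM in control and 7174 in hypothyroid cells (3.02-fold, 2.88 to 3.18). *Ccl5*, a T cell attractant, was 194 and 1402 (7.23-fold, 6.07 to 8.69). *Ccl4* had UMIs in 412 of 488 hypothyroid cells and 42 of 88 control cells, and *Ccl5* in 246 and 15. Outside the myeloid gate, *Ccl5* went the other way (0.622) and *Ccl4* the same way (5.87-fold). *Ptprc* was above 0 in 60.1% of those control cells and 27.3% of the hypothyroid ones, and the part of this make-up was not tested. *Cxcl10*, an interferon-induced T cell attractant, was 442 and 957 (2.16-fold, 1.92 to 2.44), and it was 1.23-fold with the later columns added. *Ccl2*, the main monocyte attractant, was 482 and 1080 (2.24-fold, 2.0 to 2.52), but 1.27-fold without the 16 hypothyroid cells over 1% of other-class UMIs. *Cxcl1* was 16.0-fold higher, and 3.76-fold without those cells.

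Interferon-stimulated genes were all counted at this day, 25 of 25. In hypothyroid cells, 9 were at least 2-fold higher and 0 at most 0.5 times as high, against 3.92% and 5.74% of all genes. *Isg15*, a ubiquitin-like modifier, was 263.5 and 1009.7 CPM (3.83-fold, 3.29 to 4.48), with UMIs in 45 of 88 and 381 of 488 cells. *Ifit1*, which binds foreign RNA caps, was 401 and 1038 (2.59-fold, 2.29 to 2.94), and *Cmpk2*, a mitochondrial nucleotide kinase, was 81.8 and 255 (3.12-fold, 2.37 to 4.17). With the later columns added these were 2.17, 1.16 and 1.09. *Isg15* was also 1.84-fold higher outside the myeloid gate. *Il1rn*, the secreted antagonist of the interleukin 1 receptor, was 367 and 1037 (2.83-fold, 2.49 to 3.23), and *Il10*, an anti-inflammatory cytokine, was 37.9 and 83.6 (2.21-fold, 1.47 to 3.46).

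**Figure D3:**
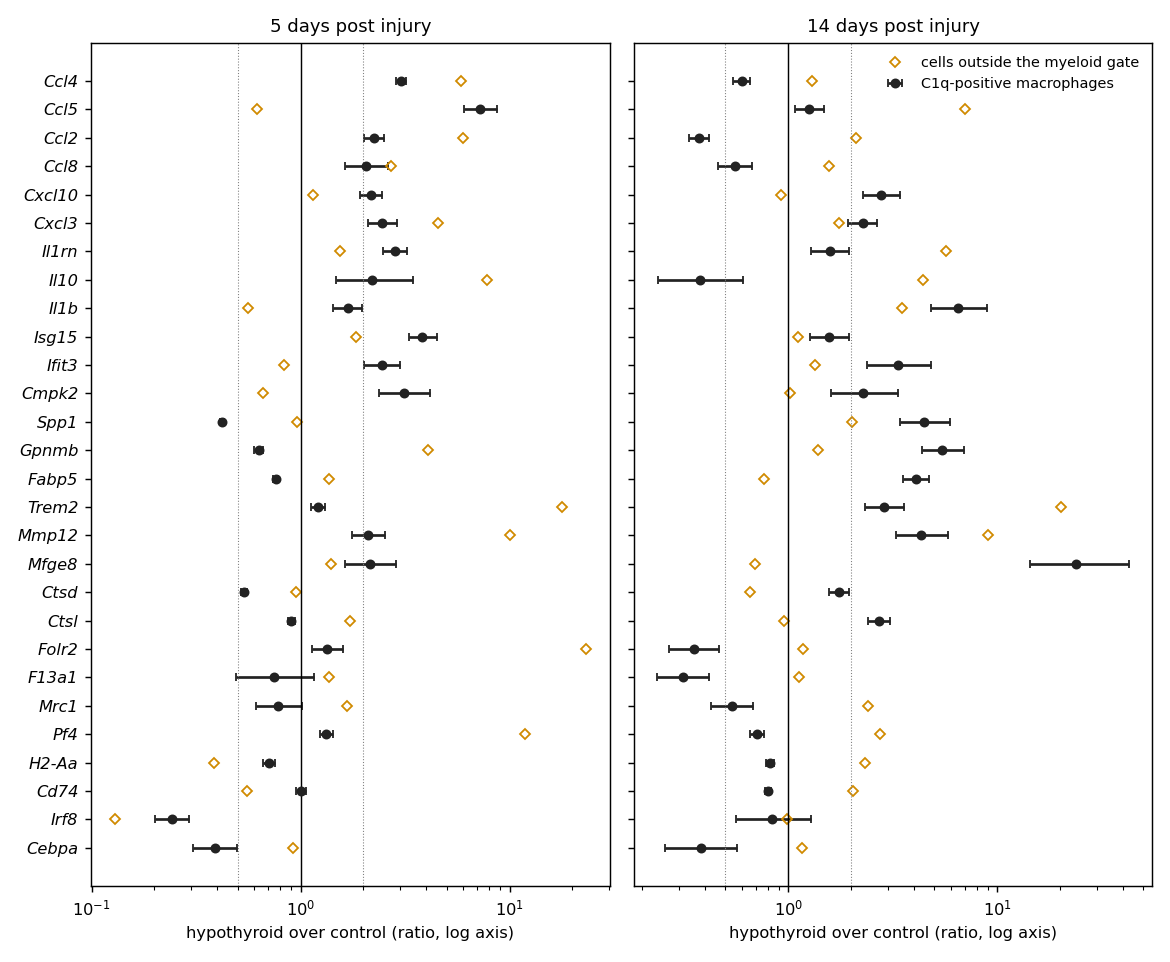
Ratio of hypothyroid to control (log axis) for named genes at 5 and 14 dpi: dots are C1q-positive macrophages with 95% intervals of counting error, diamonds the cells outside the myeloid gate of the same libraries. *Ccl5* and *Isg15* lie to the right at 5 dpi, *Gpnmb* and *Fabp5* at 14 dpi.

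On the lower side at 5 dpi, where 5.74% of all genes lay, stood 2 of 6 monocyte genes (*Ly6c2* and *Plac8*), 3 of 19 transcription factors and 2 of 9 cholesterol efflux genes. *Irf8*, a factor of monocyte and dendritic cell development, was 267 CPM in control and 64.6 in hypothyroid macrophages (0.242, 0.200 to 0.293), and its ratio was 0.129 outside the myeloid gate. *Plac8* was 159 and 37.1 (0.233), *Ly6c2*, the antigen of inflammatory monocytes, was 57.5 and 10.1 (0.175, 0.112 to 0.276), and *Cebpa*, a myeloid lineage factor, was 142 and 55.3 (0.389, 0.306 to 0.498). *Abcg1*, which exports cholesterol, was 267 and 89.4 (0.336, 0.281 to 0.402), and *Scd2*, a fatty acid desaturase, was 54.5 and 16.9 (0.311, 0.207 to 0.475). These 6 genes kept a ratio of at most 0.5 with the later columns added.

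The lipid and repair genes that led the change by day had no single direction by diet at 5 dpi. The pooled level of *Spp1* was 16766 in control and 7047 in hypothyroid cells (0.420, 0.411 to 0.429), but 1 control cell held 31.2% of the control UMIs, and the ratio was 0.560 without the top cell of each pool. Cells with *Spp1* were not fewer: 72.3% of control and 80.6% of hypothyroid macrophages when each was thinned to 2000 UMIs (79.5% and 88.3% before thinning), and the mean of log2(CPM + 1) over cells gave 1.71-fold in the opposite direction. *Gpnmb* at 0.630 and *Fabp5* at 0.762 changed side in the same way, to 1.3 and 1.85. *Trem2* was 1.21-fold (1.13 to 1.31). Of the 16 genes of the list, 2 were higher and 2 lower (3.92% and 5.74% of all genes). *Ctsd* was 0.537 (0.521 to 0.553), and of 20 lysosomal genes 2 were at most 0.5 times as high, among them *Neu1* (0.494), a sialidase of glycoprotein breakdown. For the class II genes, 0 of 7 passed 2-fold either way on this day. *H2-Aa* was at 0.710 and *Cd74* at 1.0.

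At 14 dpi, the lipid and repair genes were higher in hypothyroid macrophages. Of 14, 9 were at least 2-fold higher and 0 at most 0.5 times as high, where 4.02% and 5.64% of 2289 genes were (9.65% either way), and their median log2 ratio was 1.4 against −0.04 over all genes. *Gpnmb* was 249 CPM in control and 1362 in hypothyroid cells (5.46-fold, 4.36 to 6.94), *Fabp5* was 653 and 2657 (4.07-fold, 3.53 to 4.70), and *Spp1* was 183 and 817 (4.46-fold, 3.42 to 5.92). The UMIs came from 73 of 115 hypothyroid against 15 of 73 control cells for *Gpnmb*, 86 against 26 for *Fabp5*, and 52 against 15 for *Spp1*. *Lpl*, the triglyceride-hydrolyzing lipase, was 183 and 588 (3.21-fold, 2.46 to 4.28). *Trem2*, in the macrophage identity list, was 303 and 874 (2.89-fold, 2.34 to 3.6). Of 18 lysosomal genes, *Ctsl* (2.72-fold) and *Acp5* (2.48-fold), an acid phosphatase, passed 2-fold. Outside the myeloid gate, the ratio was 1.38 for *Gpnmb*, 0.769 for *Fabp5* and 2.02 for *Spp1*.

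These 14 dpi differences rest on the first runs of columns. With the 140 cells that passed the gate among the later columns of the control 14 dpi table added, the ratio was 1.39 for *Gpnmb*, 1.51 for *Fabp5*, 1.33 for *Spp1*, 1.20 for *Lpl*, 1.09 for *Trem2*, 1.21 for *Ctsl* and 1.05 for *Acp5*. Without cells over 1% of other-class UMIs, *Gpnmb* was 4.55-fold, *Fabp5* 3.14-fold and *Spp1* 4.42-fold. *Mmp12*, macrophage elastase, was 164 and 710, with all control UMIs in 1 cell and the hypothyroid ones in 37.

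Further genes were higher in hypothyroid macrophages at 14 dpi. *Mfge8*, which bridges dying cells to phagocytes, was 47.3 and 1129 CPM (23.9-fold, 14.4 to 42.8), with UMIs in 6 of 73 and 41 of 115 cells and 25.6% of the hypothyroid UMIs in 1 cell. *Il1b*, the inflammatory cytokine, was 142 and 920 (6.48-fold, 4.81 to 8.94), in 9 and 33 cells, and *Itgax*, the CD11c integrin chain, was 28.4 and 160 (5.64-fold, 2.91 to 12.5). *Cxcl10* was 2.79-fold and *Ifit3* 3.33-fold higher, while *Ccl4* was at 0.598 and *Ccl5* at 1.26. With the later columns added, *Mfge8* was 2.58-fold, *Il1b* 1.42-fold, *Itgax* 1.23-fold, *Cxcl10* 0.851 and *Ifit3* 0.804. Of 17 interferon-stimulated genes, 4 were at least 2-fold higher and 0 at most 0.5 times as high. Of 13 proinflammatory genes, 4 were higher and 0 lower, against 5 and 0 of 15 at 5 dpi. Over all genes, 4.02% were higher and 5.64% lower at 14 dpi, and 3.92% and 5.74% at 5 dpi.

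Other genes were lower there. All 4 counted resident-type genes, *F13a1*, *Folr2*, *Gas6* and *Igfbp4*, were at most 0.5 times as high in hypothyroid macrophages at 14 dpi, while 0 of 4 were at 5 dpi. Over all genes, 5.64% were lower and 4.02% higher at 14 dpi, and 5.74% lower at 5 dpi. *F13a1* was 297 in control and 93.0 in hypothyroid cells (0.314, 0.236 to 0.418), and *Folr2* was 303 and 107 (0.353, 0.268 to 0.465). With the later columns added they were at 0.599 and 0.638. Of 10 complement genes other than C1q, 5 were lower and 1 higher, among them *C5ar1*, the receptor of the C5a fragment, at 379 and 178 (0.471, 0.374 to 0.595). *Igfbp4* and *C3* are also made by stromal cells, whose markers were lower in the hypothyroid cells on this day. Of 10 chemokine genes, 3 were lower (*Ccl2*, *Ccl7* and *Ccl12*) and 1 higher (*Cxcl10*). *Ccl2* was 1764 and 658 (0.373, 0.334 to 0.417), and *Ccl7*, a related monocyte attractant, was 1685 and 483 (0.287, 0.254 to 0.323), ratios of 0.782 and 0.572 with the later columns. Both were higher in hypothyroid than in control mice outside the myeloid gate (2.10- and 2.33-fold). *Selp* (404 and 1.72) had its control UMIs in 3 cells, and *Lyz1* (656 and 38.8) had 96.2% of them in 1 cell.

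Class II genes differed less than 2-fold by diet at 14 dpi as well. *H2-Aa* was at 0.820 (0.784 to 0.859) and *Cd74* at 0.803 (0.777 to 0.829). Of 7 counted, 0 passed 2-fold, where 9.65% of all genes did, a share from which so short a list cannot be told apart. The summed class II level was 36347 in control and 30081 in hypothyroid macrophages. *Hmox1* was 10298 and 5208 (0.506, 0.485 to 0.528), and its ratio was 0.891 with the later columns added. The thyroid hormone list holds receptors, deiodinases, transporters, corepressors and targets. Of its 20 genes, 17 were present in the data and 3 reached the count minimum on either day. Of these 3, 0 passed 2-fold by diet, where 9.67% of all genes did at 5 dpi and 9.65% at 14 dpi. *Klf9* was 48.5 in control and 33.7 in hypothyroid cells at 5 dpi and 186 and 103 at 14 dpi, and *Thra*, the main thyroid hormone receptor of most tissues, was 9.09 and 11.2, and 41.0 and 37.9.

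Of 2192 genes counted by diet on both days, 15 were at least 2-fold higher in hypothyroid macrophages on both (0.684%), 19 were at most 0.5 times as high on both (0.867%), and 15 lay past 2-fold on opposite sides (0.684%).

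The same genes were also counted cell by cell. Thinned to 2000 UMIs, which left 83, 449, 62 and 106 cells, *H2-Aa* was present in 42.2% of control and 45.7% of hypothyroid macrophages at 5 dpi and in 90.3% and 96.2% at 14 dpi (56.8%, 56.4%, 95.9% and 98.3% before thinning). *Gpnmb* was present in 69.9% and 72.6% at 5 dpi, and in 16.1% (8.02 to 27.7) of control against 50.0% (40.1 to 59.9) of hypothyroid cells at 14 dpi (before thinning 73.9%, 81.1%, 20.5% and 63.5%). *Mrc1* was present in 18.1%, 15.8%, 46.8% and 22.6% of the thinned cells. Before thinning these were 44.3%, 37.7%, 56.2% and 63.5%, so the order of the diets at 14 dpi turned with depth. *Ccl4* was present in 37.3% (27.0 to 48.7) and 71.7% (67.3 to 75.8) of thinned cells at 5 dpi and in 35.5% and 32.1% at 14 dpi. Cells with at least 3 of 25 proliferation genes were 10.8%, 8.02%, 1.61% and 5.66% of thinned cells (30.7%, 31.4%, 6.85% and 24.3% before).

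**Figure D4:**
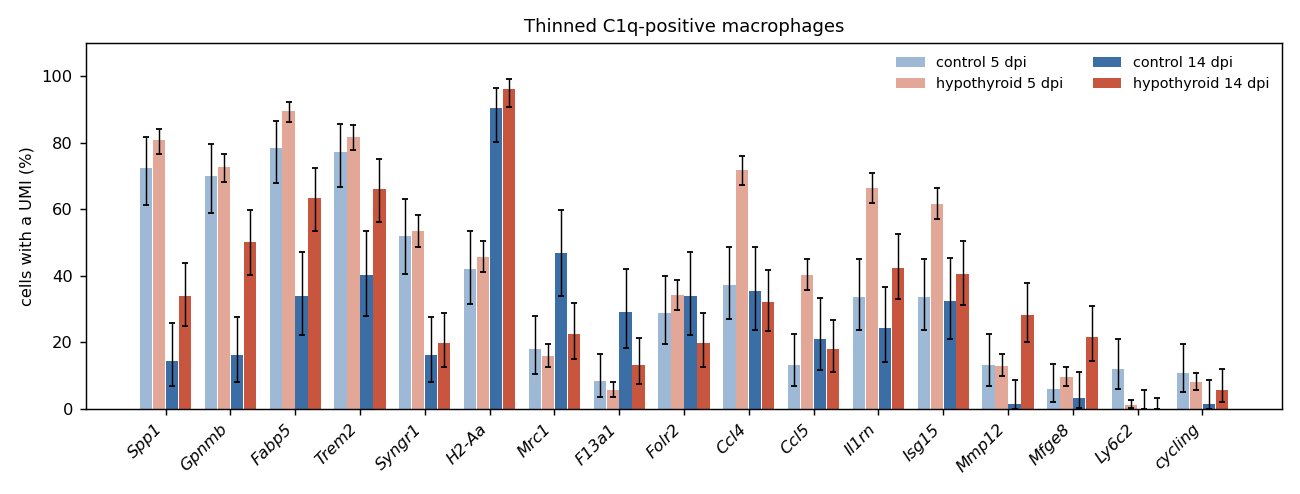
Share of C1q-positive macrophages (%, vertical axis), each thinned to 2000 UMIs, with at least 1 UMI of a gene, or at least 3 proliferation genes for "cycling", by library with exact 95% binomial intervals. *H2-Aa* was in 42.2% and 45.7% of cells at 5 dpi and 90.3% and 96.2% at 14 dpi.

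Class II and lysosomal transcripts were spread differently over the cells on the 2 days. The median thinned cell held 1, 2, 75 and 66.5 class II UMIs and 78, 56, 34.5 and 39 lysosomal UMIs. At 5 dpi, cells with many lysosomal UMIs had few of class II: Spearman's rho across cells was −0.51 in 83 control and −0.35 in 449 hypothyroid cells, and it was −0.11 and 0.09 at 14 dpi. *Fabp5* and *Gpnmb* went together across cells in control mice at 5 dpi (rho 0.69) and in hypothyroid mice on both days (0.57 and 0.56), and less so in the 62 control cells at 14 dpi (0.16), of which *Gpnmb* was present in 16.1% and *Fabp5* in 33.9%. These are descriptions: cells of a library share its RNA background and depth, and a fixed number of UMIs per cell ties the counts of gene groups to each other.

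**Figure D5:**
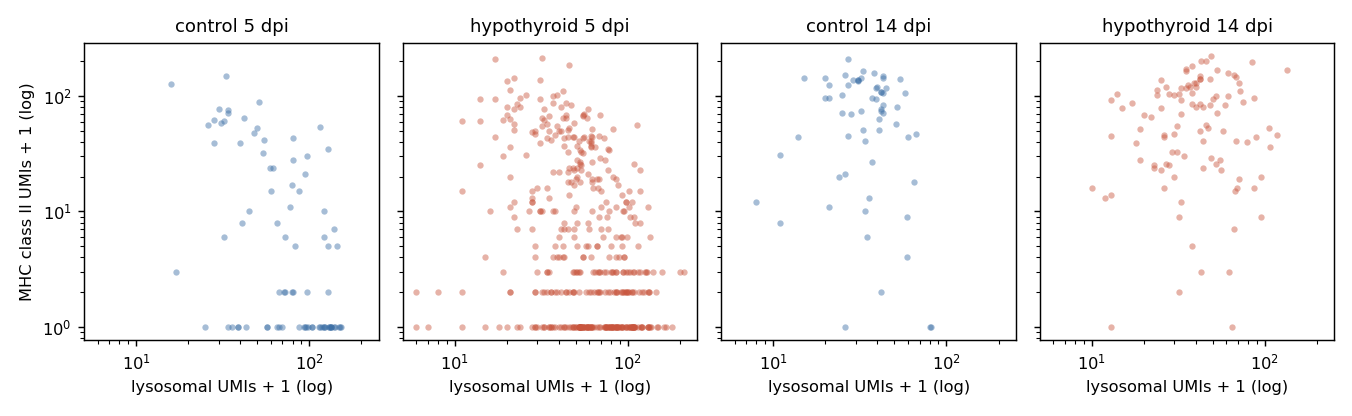
Class II against lysosomal UMIs of each C1q-positive macrophage, thinned to 2000 UMIs, with 1 added and both axes on a log scale, 1 panel per library. Cells lie along the lysosomal side with few class II UMIs at 5 dpi (medians 1 and 2) and shift up to medians of 75 and 66.5 at 14 dpi.

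Set beside the C1q-negative myeloid cells of the same 4 libraries, 35 of 1445 genes were at least 2-fold higher in the C1q-positive cells in every library (2.42%) and 7 at most 0.5 times as high (0.484%). The gate separates these classes, and 6 of the 35 are its own genes, so this is a description. *Pf4* was 22.6- to 51.0-fold higher, *Apoe*, the lipid carrier, 9.71- to 30.8-fold, *Selenop*, a selenium carrier, 8.27- to 37.0-fold, and *Igf1*, a growth factor for myogenic cells, 5.26- to 30.9-fold. *Ctsl* was 5.15- to 14.9-fold higher. The 7 lower genes were *Slpi*, *Vcan*, *Il1b*, *Gsr*, *Clec4n*, *Ly6a* and *Slc7a11*. *Il1b* was 256, 430, 142 and 920 CPM in the C1q-positive cells against 2271, 2178, 1527 and 1986 in the C1q-negative ones.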

How the data were processed

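Single-cell 3′ libraries (10x Genomics) of TAM from control and hypothyroid mice were analysed from the deposited matrices of log2(CPM + 1), which, per the methods and the processing notes, the authors made in Partek Flow with Cell Ranger alignment to mm39 and filters on UMIs, genes and mitochondrial share. In each cell the most frequent value above 0 was taken as 1 UMI, by which 99.934% of 39334018 values were whole. Library sums were 2283954 to 23497545 UMIs. Doublets were not called, beyond the gate's exclusions and the cells over 1% of other-class UMIs. Barcodes shared between first runs numbered 12, 1 of them between gated cells, with unlike counts.

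UMIs were summed over gated cells per library. Ratios of sums carry exact conditional binomial intervals and shares exact Clopper-Pearson intervals (95%). A gene was counted where its mean level in a pair gave at least 20 expected UMIs in the smaller pool, and it passed at 2-fold or 0.5. With 1 library per group there is no test and no p-value; groups came from the labels. Shares of cells with a gene were computed on cells thinned to 2000 UMIs. Members, gene lists and the genes named were chosen with earlier results of these data known; beside list members, the rule named the 10 genes with the most extreme interval bound each way among those with at least 100 UMIs. Of 451 list genes, 428 were in the tables and the others were not analysed here; a few genes are not reported here. The ratio steps were tested on simulated Poisson counts of pools, which leave out the spread between cells. Promoter windows came from RefSeq (GRCm38.p6), which were used for letters only. Alternatives were the later columns, all 3 chains, other minimums, cell means of log2(CPM + 1), and leaving out cells with other-class markers. Software was Python 3.11.15, numpy 2.4.6, scipy 1.17.1, pandas 2.3.3 and matplotlib 3.10.9.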

Additional observations from a re-analysis of the deposited data

Results flagged for a closer look

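The direction of the hypothyroid to control ratio in C1q-positive macrophages turned between 5 and 14 dpi for 15 of 2192 genes counted on both days (0.684%), past 2-fold on either side; with 1 library per group the turn was not tested. *Spp1* went from 0.420 to 4.46 and *Smc1a*, a cohesin subunit, from 0.481 to 2.96. The other 13 were higher at 5 and lower at 14 dpi. Among them, the monocyte attractant *Ccl2* went from 2.24 to 0.373, the cytokine *Il10* from 2.21 to 0.377, *Tmem176a* from 2.47 to 0.497 and *Tm4sf1* from 42.1 to 0.362. The others are matrix or stress genes of stromal or muscle cells: *Col1a1* went from 10.7 to 0.339, *Col1a2* from 9.62 to 0.466, *Dcn* from 13.5 to 0.247, *Fbn1* from 9.56 to 0.221, *Fstl1* from 14.8 to 0.259, *Igfbp5* from 2.06 to 0.158, *Mfap5* from 24.9 to 0.213, *Serpinf1* from 6.56 to 0.379 and *Cryab* from 3.19 to 0.401. The summed FAP markers moved the same way in these cells (447 to 2446 CPM at 5 dpi, 5482 to 2083 at 14 dpi), and their part in the turn was not tested.

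Columns after the first run of barcodes, which entered only the alternative with all columns, also hold cells that pass the gate. They number 82 and 20 in the tables of uninjured control and hypothyroid mice, whose first runs hold 0, and 63, 59 and 140 in those of control 5 dpi, hypothyroid 5 dpi and control 14 dpi. The 1152 later columns of the control 0 dpi table have the same values as cells of the hypothyroid 14 dpi first run, and the 528 of the hypothyroid 0 dpi table the same values as control 5 dpi cells. The other later columns match no first-run cell, and the labels do not say what they are.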

How the results depend on the processing

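Each group had 1 library, so leaving out a replicate was not possible. No paired analysis was possible because each group has 1 library. The share ratio of 6.25 at 5 dpi was 4.08 with all columns and 9.38 per *Ptprc*-positive cell, and that of 3.14 at 14 dpi was 1.99 and 1.63; at 0 dpi it has no value. The number of genes counted changed with the setting and is given after each number below. Genes past 2-fold between diets at 5 dpi (367 of 3797) numbered 152 of 1254 without cells holding 3 or more other-class genes. They numbered 130 of 1773 at a minimum of 50 expected UMIs and 3931 of 12113 with no minimum. At 14 dpi (221 of 2289) they numbered 142 of 1567 without cells over 1% of other-class UMIs. They were 86 of 910 at the minimum of 50, 4208 of 11864 with none, and 974 of 2289 by mean log2(CPM + 1). Between days, control counts (484 of 2344) were 207 of 927 at the minimum of 50 and 5382 of 11556 with none. They were 1176 of 2344 by mean log2 and 323 of 1617 without cells over 1%. Hypothyroid counts (630 of 5434) were 45 of 118 without cells of 3 or more other-class genes and 411 of 4614 without cells over 1%. They were 284 of 2977 at the minimum of 50 and 3628 of 12249 with none. The higher share of these calls moved from 40.6% to 28.1% (all columns) and 52.4% (mean log2) at 5 dpi, and from 41.6% to 64.4% and 95.1% at 14 dpi; by mean log2 it moved from 58.5% to 14.2% between days in control mice and from 76.7% to 57.6% in hypothyroid mice, where it was 33.3% without cells of 3 or more other-class genes.

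Among called genes, directions turned for *Spp1* at 5 dpi by mean log2 (1.71); *Mmp12* at 5 dpi without cells of 3 or more other-class genes (0.260); *Cxcl10* (0.851), *Ifit3* (0.804) and *Cmpk2* (0.648) at 14 dpi with all columns; and *Lyz1* at 14 dpi by mean log2 (1.25) and without its top cell (1.21). Between days in hypothyroid mice they turned by mean log2 for *Il1b* (0.747) and *Il1a* (0.894). Without cells of 3 or more other-class genes they turned for *Slc48a1* (0.848), *Folr2* (1.02), *Il1b* (0.391), *Egr1* (0.677) and *Fos* (0.962). Leaving out those cells removed 108 of 115 hypothyroid 14 dpi cells and left 118 genes counted by day, so these turns rest on few cells. Among genes short of 2-fold, by mean log2 *Gpnmb* (1.3) and *Fabp5* (1.85) turned at 5 dpi and *Ccl4* (1.22) and *Mrc1* (1.09) at 14 dpi, and with all columns *Ccl5* at 14 dpi (0.751) and *Folr2* by day in control mice (0.624), among others. The causes were not tested. Of named genes past 2-fold, those still past it were 128 of 134 with all 3 chains, 127 of 133 without cells over 1%, 123 of 131 without the top cell, 103 of 135 by mean log2, 75 of 135 with all columns and 37 of 58 without cells of 3 or more other-class genes, which left no control 14 dpi cell. The alternatives for cells over 1% and for top cells were chosen after seeing the data. The smallest pool, 316860 UMIs, sets which genes could be counted.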

Other observations

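Some genes differed by diet at 5 dpi in C1q-positive macrophages and in the cells outside the myeloid gate alike. The ribosomal pseudogene *Gm10076* was 18.6-fold higher in hypothyroid macrophages and 17.6-fold higher in the other cells. *Neat1*, a nuclear RNA, was at 0.248 and 0.320, the mitochondrial gene *mt-Nd1* at 0.265 and 0.261, *Lars2* at 0.206 and 0.403, and the muscle actin *Acta1* at 0.203 and 0.193. At 14 dpi, the muscle genes *Myl1* (0.108 and 0.212) and *Mylpf* (0.136 and 0.228) were lower in both.

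Genes on the same side of 2-fold by diet on both days were 15 higher and 19 lower of 2192 (0.684% and 0.867%). The 15 included *Cxcl3*, *Ifit2*, *Irgm1*, *Timp1* (9.48 and 3.00), *Vcam1* (4.71 and 3.16), *Tmsb10* (2.47 and 4.24) and *Gm10076* (18.6 and 2.05). The 19 included *Cebpa* (0.389 and 0.380), *Clec4n*, *Gclc*, the subunit of glutathione synthesis (0.432 and 0.427), and *Ly6e* (0.385 and 0.313). Muscle genes were also among the 19: *Acta1*, *Myl1*, *Mylpf*, *Pvalb*, *Tnnc2* and *Tnni2*. *Tnfaip6*, a matrix-binding protein of stromal cells, had 653 UMIs in 58 hypothyroid macrophages at 5 dpi and none in control, at least 30.8-fold higher against a floor of 3 counts, with 33.1% of them in 1 cell.

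Counts of further lists past 2-fold by diet follow. Over all genes, 3.92% were higher and 5.74% lower at 5 dpi, and 4.02% and 5.64% at 14 dpi. Of 14 growth factor genes, 2 were higher and 1 lower at 5 dpi, and 0 and 1 at 14 dpi. Of iron and heme genes, 0 of 11 and 0 of 9 passed either way. Of 12 efferocytosis genes, 1 was higher and 4 lower at 5 dpi, and of 8 at 14 dpi 1 was higher (*Mfge8*) and 1 lower (*Stab1*). Of 19 transcription factors at 5 dpi, 0 were higher and 3 lower (*Cebpa*, *Irf8* and *Runx3*), and of 16 at 14 dpi 0 were higher and 2 lower (*Cebpa* and *Klf4*).

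Many of the most extreme ratios rested on few cells or on genes of other classes. By diet at 5 dpi, *H2ac24*, a histone gene, was 73.6-fold higher (13.2 to 2914, from 1 control UMI) and *Il1rl1* 59.3-fold (10.6 to 2349, from 1 control UMI), while *Cxcl5*, *Il33* and *Csf2* had no control UMI and held 57.5%, 42.9% and 77.4% of their hypothyroid UMIs in 1 cell. On the lower side stood *H1f2* (0.160), *Ftl1-ps1* (0.254), *mt-Nd3* (0.284) and *Mylpf* (0.227). At 14 dpi, *Retnla* had 62.1% and *Cenpf* 89.7% of the hypothyroid UMIs in 1 cell, *Stmn1* was 12.3-fold higher in 21 cells, *Il1a* 17.3-fold in 24 cells and *Ctla2a* 8.58-fold in 19 cells. *Nupr1* (0.119) had 86.7% of its control UMIs in 1 cell, and *Pvalb*, *Tnni2*, *Tnnc2*, *Tnnt3* and *Mb*, all muscle genes, were at 0.0886 to 0.166.

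By day, the most extreme higher genes in control macrophages were *Rgs5*, *Selp*, *Fmod*, *Dcn*, *Mb*, *Thbs4*, *Tnnt3*, *Lyz1*, *Tm4sf1* and *Myl1*, mostly of mural, endothelial, tendon, stromal or muscle origin, with *Fmod* UMIs 95.7% in 1 cell. Lower were *Il18bp* (0.0318, 0.00381 to 0.117, from 2 UMIs at 14 dpi), *Gngt2* (0.150) and *Syngr1* (0.0511). In hypothyroid macrophages the higher genes were *Myh1* (97.8% in 1 cell), *Rgs5*, *Hba-a1*, *Hba-a2*, *Hbb-bs*, *Cldn5*, *Tnmd*, *Retnla*, *Aqp1* and *Akap12*. Lower were *Slpi*, a protease inhibitor (0.0516, 0.0222 to 0.102), *Cxcl5* (0.0594), *Il1rl1* (0.0767), *H2ac24* (0.0541), *H2ac8* (0.0645), *C1qtnf3* (0.0362, 0.00436 to 0.132, from 2 UMIs), *Csf2* (0.0515, 0.0105 to 0.152, from 3 UMIs) and *Cxcl13*, at least 11.6-fold lower, with all 140 UMIs at 5 dpi in 1 cell.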
